A study of Drosophila melanogaster with 2 samples.

Results

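The proteasome subunit genes of Drosophila were followed through the temporal cascade of medulla neuroblasts (NBs), the neural stem cells of the larval optic lobe. They were chosen by symbol, as the genes whose name starts with Prosalpha, Prosbeta, Rpn and a digit, or Rpt and a digit. This rule found 47 of the 17753 genes in the count tables. By their known role, 32 are the standard subunits, with 7 of the alpha ring, 7 of the beta ring, 6 ATPases of the base, 4 other base subunits and 8 lid subunits, and 15 are paralogs of these subunits, named with a final R or T.

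The proteasome is the protease that degrades proteins tagged with chains of ubiquitin. Its barrel-shaped 20S core is built of stacked rings of alpha and beta subunits, with the active sites on some beta subunits inside the barrel. The 19S regulatory particle caps the core, and its lid and base recognise the ubiquitin chain, remove it, unfold the substrate and feed it into the core. Dividing cells use this machinery to destroy cyclins and other short-lived regulators, and in Drosophila several paralogs of the subunits are known from the male germline.

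Medulla NBs express temporal transcription factors (TTFs) one after the other as they age, and each NB buds off progeny that become neurons. Larval brains were dissociated and sorted for cells positive both for GFP and for a red nuclear reporter, and the sorted cells were sequenced with 10x Genomics 3' libraries in 2 experiments. Both libraries have 1 condition: untreated wandering larvae of the third instar raised at 25 °C, with 120 larvae per experiment. All larvae carried E(spl)mgammaGFP, which marks NBs, together with SoxNGal4 and UAS-RedStinger, by which the red reporter is made in cells of the medulla, over the balancer chromosome TM6B. The libraries are pools of larvae, so no value can be assigned to an animal. The p-values below measure only how differences between cell groups vary between these 2 libraries, since the library was a block in the fit. In summed counts, fewer cells of a type and less RNA per cell cannot be told apart.

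The library of experiment 1 held 42618478 unique molecular identifiers (UMIs, each 1 captured transcript molecule) in 6548 cells, and that of experiment 2 held 116712060 UMIs in 5343 cells. The libraries shared 9 cell barcodes. Cells with at least 1 UMI of dpn, which encodes the NB factor Deadpan, and under 10% mitochondrial UMIs were taken as NBs, which left 776 cells in experiment 1 and 2298 in experiment 2. All 7 NB markers examined reached 10 CPM (UMIs per 1000000 UMIs of the cell group) in the NBs of both experiments, while the 4 haemocyte markers summed to under 1 CPM (0.352 and 0.207). This does not separate NBs from cells without a dpn UMI, where all but dpn, 6 of the 7, also reached 10 CPM. The 7 markers summed to 2924 and 3038 CPM in NBs and to 768.5 and 694 CPM in cells without a dpn UMI. Of 8 neuron markers, 7 reached 10 CPM in the NBs of experiment 1 and 2 in those of experiment 2. Each NB was given the stage of the strongest of 7 factors with at least 2 UMIs: hth, ey, slp1, D, B-H1, tll or gcm, in the order of the cascade. The stages held 25 (tll) to 139 (slp1) cells in experiment 1 and 92 (tll) to 573 (slp1) in experiment 2, and 235 and 219 NBs had no stage. The cells without a dpn UMI were divided into those with an elav UMI (391 and 878 cells), a neuronal marker, and those without (104 and 966 cells, with a median of only 1720 and 723.5 UMIs per cell). The hth sum of experiment 1 stood apart. Its markers of newborn neurons and ganglion mother cells summed to 9640 CPM, against 834 CPM in experiment 2. The gcm sums held 6337 and 4853 CPM. Most of the 9640 CPM was pros, with 10370 UMIs, beside 92 of nerfin-1, 14 of dap, 18 of tap and 3 of Hey. In experiment 2 the hth sum held 5054, 85, 197, 289 and 31 UMIs of these genes. Of 1088901 and 6782568 UMIs in all, pros and nerfin-1 thus made a larger share in experiment 1, and dap, tap and Hey a smaller one. The calls between late and early NBs were therefore also made without the hth or without the gcm stage.

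The standard subunits were all detected in NBs at levels of the same order, with 1 exception. Without Prosalpha1, the 31 standard subunits ranged from 97.8 to 342.9 CPM in the first experiment and from 113.7 to 407.2 CPM in the second, which rest on 1667 to 5843 and 11517 to 41256 UMIs. Since each molecule is counted once at its 3' end, CPM values of different genes were compared without a correction for length. Core subunits took the first 12 places by the mean of both experiments. The median of this mean was 316.5 CPM over the 13 core subunits and 176.3 CPM over the 18 subunits of the regulatory particle.

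Prosalpha5, an alpha ring subunit, was the most abundant, with 343 CPM in experiment 1 and 407 CPM in experiment 2. Prosbeta3 followed with 322 and 406 CPM, and Prosalpha3 with 319 and 407 CPM. These 3 genes differed from each other by less than they differed between the experiments, so their order is not resolved. Prosbeta4 held 333 and 374 CPM. Prosbeta1, which carries the caspase-like active site, held 303 and 360 CPM, close to the other catalytic subunits Prosbeta5 (294 and 341 CPM) and Prosbeta2 (267 and 326 CPM). Prosbeta7 was the one core subunit away from the others, at 160 and 194 CPM.

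In the regulatory particle, the ATPase Rpt3 led with 237 and 289 CPM, and the ATPase Rpt5 was the lowest of the 31 genes with 97.8 and 114 CPM. Rpn11, the lid enzyme that cuts the ubiquitin chain from the substrate, held 231 and 261 CPM. Of the ubiquitin receptors, Rpn10 held 146 CPM in the first and 184 CPM in the second experiment, and Rpn13 held 140 and 177 CPM. Subunits that occur in equal number in the assembled particle thus differed in CPM by more than the experiments did. Whether transcripts of all these genes are captured equally well was not tested. The order of the 31 genes was close to the same in both experiments, with Spearman's rho of 0.974 across genes, which are not independent replicates and share the library totals.

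**Figure D1:**
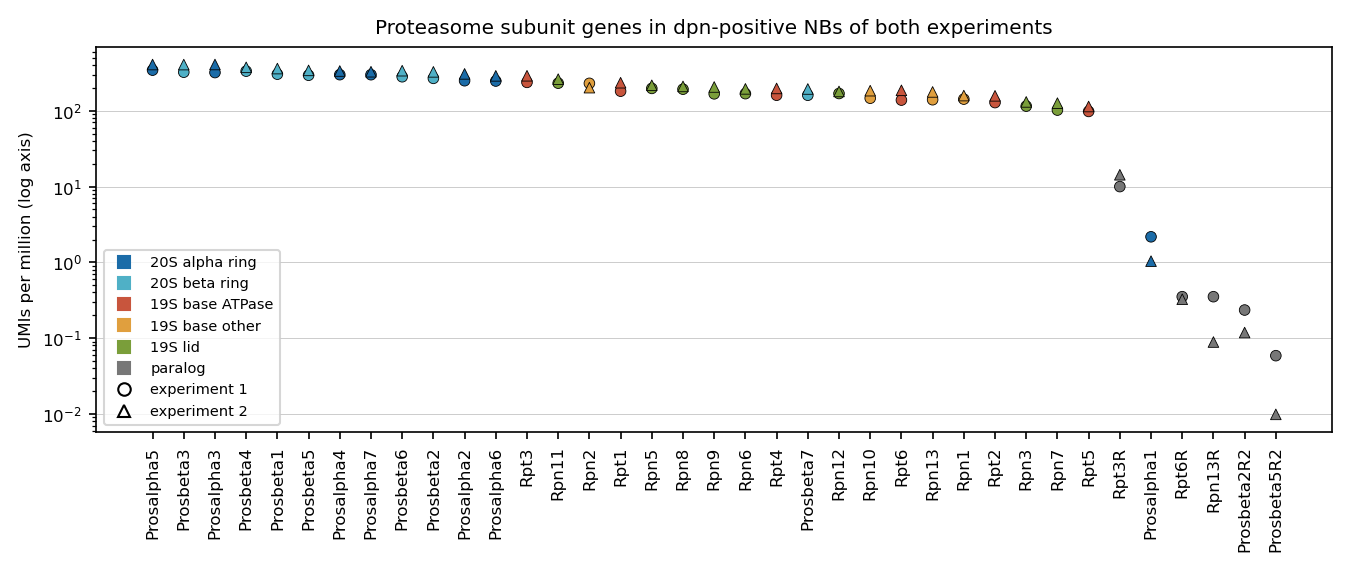
Level of each proteasome subunit gene over all dpn-positive NBs, in CPM on a log axis, for experiment 1 (circles) and experiment 2 (triangles), coloured by role. Only genes with a UMI in both experiments are drawn. The standard subunits other than Prosalpha1 lie between 97.8 and 407.2 CPM, and the paralogs and Prosalpha1 lie below.

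All but 1 of the 31 genes had a higher CPM in the NBs of experiment 2, with a median ratio of 1.19 to experiment 1. The exception was the base scaffold subunit Rpn2, at 230 and 202 CPM. The same held in each stage for at least 27 of the 31 genes. The experiments differ in sequencing depth and in the version of the counting software, and these cannot be told apart from a difference between the cells.

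Prosalpha1 is listed with only 37 UMIs in the NBs of experiment 1 and 105 in those of experiment 2, or 2.17 and 1.04 CPM. Next to it on the same strand in the annotation lies a paralog named Prosalpha1R, which the files hold under the symbol CG30382 with 1 UMI in NBs. Whether the counting could tell reads of these copies apart was not tested, so the level of Prosalpha1 is uncertain and it is kept apart below.

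Of the 15 paralogs, 8 had no UMI in NBs, 3 had 1 to 9 UMIs over both experiments, and 4 had at least 10. Rpt3R, a paralog of the ATPase Rpt3, was the one with a substantial count, with 170 UMIs (9.98 CPM) in experiment 1 and 1448 UMIs (14.3 CPM) in experiment 2. Rpt6R had 6 and 33 UMIs, Prosbeta2R2 had 4 and 12, and Rpn13R had 6 and 9. No exon of Rpt3R overlaps another gene on the same strand in the annotation, and Alg12 overlaps it on the other strand.

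The 7 stages were then compared to ask whether the subunits vary along the cascade. The standard subunits stayed within a narrow range. The ratio of the highest to the lowest of the 7 stages had a median over the 31 genes of 1.26 in experiment 1 and 1.24 in experiment 2, and the largest ratios were 1.69 and 1.62. This ratio was at most 1.5 for 28 of 31 genes in experiment 1 and for 30 of 31 in experiment 2. The stage with the highest level was not the same in both experiments: in experiment 2 the hth stage was highest for 20 of the 31 genes, while in experiment 1 it was highest for 2 and lowest for 13, and tll was highest for 11. The difference between the hth sums in the listed markers of newborn neurons, mostly in pros, stands beside this, and its part in it was not tested.

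**Figure D2:**
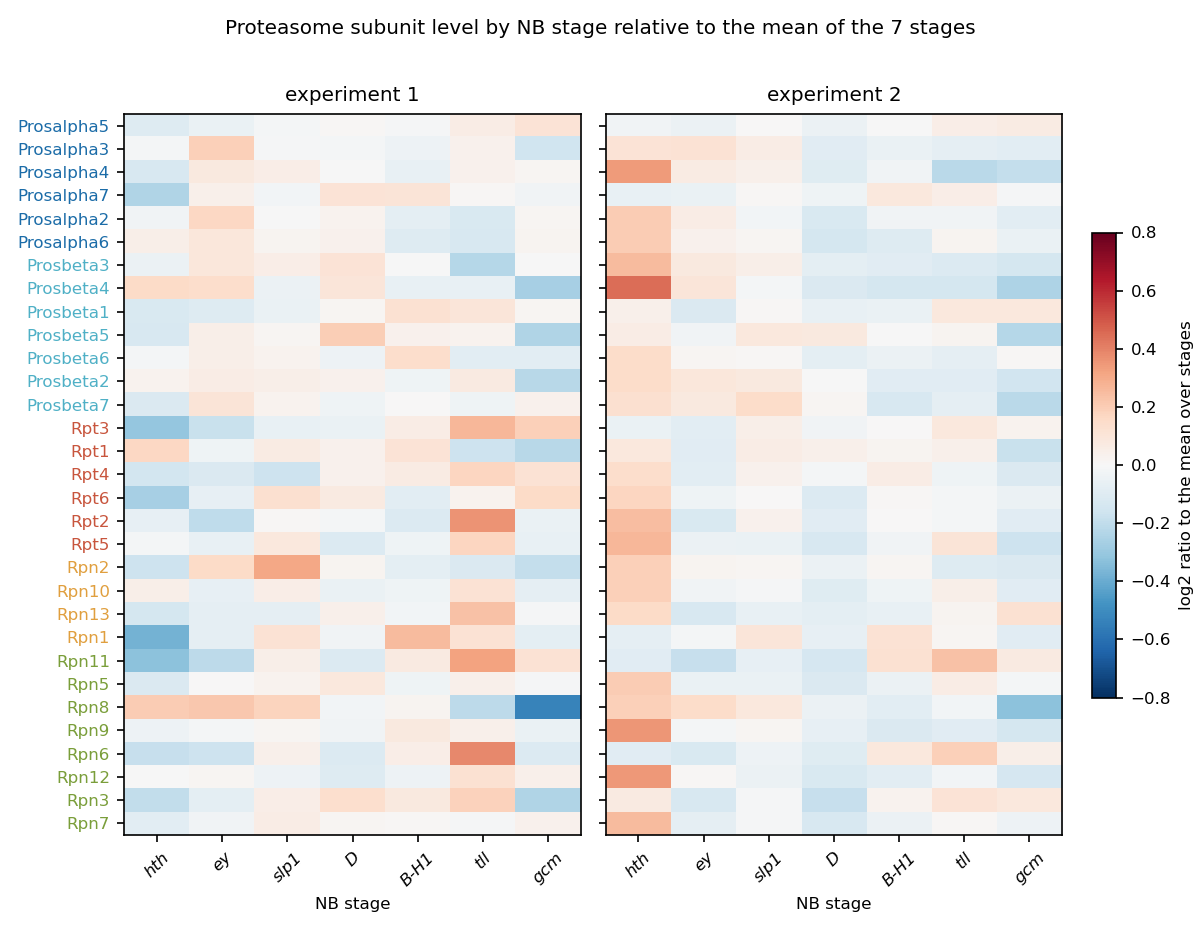
Level of the 31 standard subunits (rows, without Prosalpha1, coloured by role) in the 7 NB stages (columns) of each experiment, as the log2 ratio to the gene's mean over the stages of that experiment. Most fields are near 0. Rpn8 is low in gcm and Rpn11 is high in tll in both experiments, while the hth column is high in experiment 2 and low for many genes in experiment 1.

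Summed UMI counts per experiment and cell group were tested in 1 fit over 7591 genes that passed the filter on low counts, which included 33 members, the 32 standard subunits and Rpt3R. The other 14 members, all paralogs, were too low to be tested. Over the 7 stages, 4 of the 33 members differed between any stages at an adjusted p under 0.05 in edgeR's quasi-likelihood test with Benjamini-Hochberg adjustment, while 51% of all genes tested did. They were Rpt3R, Rpn8, Rpn11 and Prosalpha1.

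Late NBs (the mean of the tll and gcm stages) were compared with early NBs (the mean of the hth and ey stages) for a direction. These groups also differ in the G2/M genes of the study's cell cycle list. They summed to 3950 and 4311 CPM in hth, 6675 and 6718 in ey, 9497 and 10114 in tll and 10004 and 9462 in gcm. The part of this difference in the changes below was not tested. Of the 33 members, 2 were higher in late NBs, where 23.4% of all genes were, and 4 were lower, where 26.9% of all genes were. In either direction this is 6 members against 50.3% of all genes. By role, 2 lid subunits rose, and 1 lid subunit, 1 beta ring subunit, Prosalpha1 and Rpt3R fell, and none of the 10 base subunits passed the test. The median log2 fold change was -0.14 over the members and -0.13 over all genes, and the median size of the change was 0.16 over the members and 0.63 over all genes. Within each experiment the median over the members was 0.03 (experiment 1) and -0.17 (experiment 2), so its direction rests on experiment 2. With DESeq2 in place of edgeR, 2 members were higher and 9 lower. The share of all genes called by DESeq2 was not counted. There the median was -0.16 over the members and -0.12 over all genes.

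Rpt3R had the largest change that could be measured. Its level in experiment 1 was 23.0 CPM in the hth stage, 16.0 in ey, 7.31 in slp1, 6.50 in D, 1.68 in B-H1, 2.31 in tll and 5.06 in gcm. In experiment 2 it was 55.4 CPM in hth, 20.1 in ey, 8.92 in slp1, 5.20 in D, 2.97 in B-H1, 1.93 in tll and 1.23 in gcm. In both experiments the hth and ey stages were the highest, every stage from B-H1 on was below every stage before it, and the late sums did not overlap the early ones. The B-H1, tll and gcm values of experiment 1 rest on only 4, 1 and 3 UMIs. There the Poisson interval of gcm, 1.04 to 14.8 CPM, covers the slp1 and D values.

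The log2 fold change of Rpt3R from early to late NBs was -4.04 ± 0.45 (SE, adjusted p = 5.11e-06 in edgeR's quasi-likelihood test). It was -2.40 in experiment 1 alone and -4.23 in experiment 2 alone. The late NBs held only 4 UMIs of it in experiment 1 and 11 in experiment 2, against 114 and 1037 in early NBs. The rate per UMI was 4.39 times higher in early NBs in experiment 1 (95% exact interval 1.67 to 16.4) and 18.4 times higher in experiment 2 (10.2 to 36.9), where the intervals cover counting error only. The fall was called in all 11 alternatives with a test, with a log2 fold change of -4.58 to -3.47 and an adjusted p of 3.02e-09 to 0.0027. Without the hth stage it was -3.50.

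The share of cells with a Rpt3R UMI moves with depth. In the hth stage 7 of 48 cells of experiment 1 had one, 14.6% (95% exact binomial interval 6.07 to 27.8%), at a median of 9603 UMIs per cell. In experiment 2 it was 63 of 93 cells, 67.7% (57.3 to 77.1%), at a median of 82356 UMIs. Among dpn-negative cells with an elav UMI the share was 1.53% and 3.42%, at a median of 3006 and 7179.5 UMIs. With every cell thinned to 2000 UMIs, the share in experiment 2 was 4.55% (1.252 to 11.2%) in hth, 3.497% (1.97 to 5.70%) in ey and 2.46% (1.35 to 4.09%) in slp1, while none of 335 gcm cells had one, which allows a share of up to 0.896%. The interval of gcm was 0 to 1.10% there. All these intervals cover the counting of cells within 1 library and not the spread between libraries. In experiment 1 the share was 0 of 42 hth cells, which allows up to 7.14%, 1.75% (0.213 to 6.19%) in ey and 0 of 44 gcm cells. A difference was not detectable at this depth in experiment 1.

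The standard ATPase Rpt3 was compared beside its paralog. It held 204 CPM in hth, 224 in ey, 304 in tll and 288 in gcm in experiment 1, and 282, 275, 310 and 298 CPM in the same stages of experiment 2. The late sums were the higher in both experiments, but Rpt3 did not pass the test (0.25 ± 0.12, SE, adjusted p = 0.11). Rpt6R, a paralog of the ATPase Rpt6, was counted in early NBs with 4 UMIs in experiment 1 and 29 in experiment 2, and in late NBs with none, which allows up to 2.92 and 0.387 CPM against the early levels of 0.601 and 0.730 CPM. In experiment 1 a difference was thus not detectable at this depth.

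**Figure D3:**
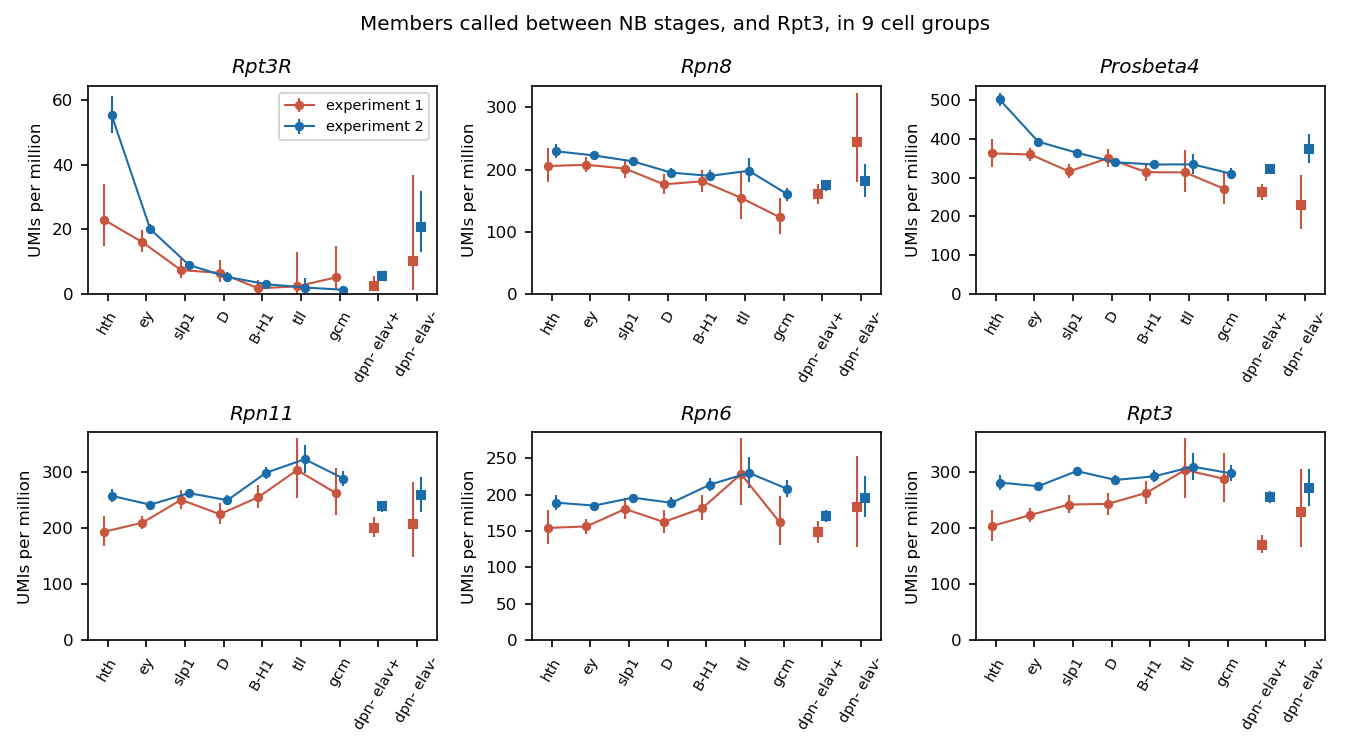
Level in CPM of the members called between late and early NBs, without Prosalpha1 and with Rpt3 beside its paralog Rpt3R, in the 7 NB stages (joined circles) and in the dpn-negative cells with and without an elav UMI (squares), for experiment 1 (red) and experiment 2 (blue). Bars are exact Poisson 95% intervals of the summed count. Rpt3R falls from 23.0 and 55.4 in the hth stage to 5.06 and 1.23 in gcm, Rpn8 and Prosbeta4 are lowest in gcm among the stages, and Rpn11 and Rpn6 are highest in tll.

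In the lid, Rpn8 and Rpn11 moved in opposite directions. They are partners, since the catalytic Rpn11 works as a pair with Rpn8, which has no catalytic activity. Rpn8 was at 206 CPM in the hth stage, 208 in ey, 154 in tll and 123 in gcm in experiment 1, and at 230, 223, 198 and 160 CPM in experiment 2. Within each experiment both late sums were below both early ones. Its log2 fold change was -0.47 ± 0.10 (SE, adjusted p = 0.00095 in edgeR's quasi-likelihood test), with -0.60 and -0.40 in the single experiments, and the call held in all 11 alternatives (-0.54 to -0.38, adjusted p up to 0.042).

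Rpn11 was at 194 CPM in hth, 210 in ey, 304 in tll and 263 in gcm in experiment 1, and at 258, 242, 324 and 289 CPM in experiment 2. Both late sums were above both early ones within each experiment. Its log2 fold change was 0.34 ± 0.09 (SE, adjusted p = 0.0040), with 0.47 and 0.24 in the single experiments, and it was called in all 11 alternatives (0.29 to 0.38, adjusted p up to 0.040). Of the 8 neuron markers, only elav was higher in both late sums than in both early sums of each experiment, with 719 and 231 CPM in hth, 486 and 392 in ey, 3176 and 2073 in tll and 4438 and 3348 in gcm. The neuronal RNA-binding protein gene fne, for example, held 2451 and 325 CPM in hth, 286 and 133 in ey, 231 and 172 in tll and 137 and 86.4 in gcm. All 8 summed to 4441 CPM in the hth sum of experiment 1, above the 3552 CPM of its tll sum. The dpn-negative cells with an elav UMI held 7262 and 5310 CPM of the 8 markers. In these cells Rpn11 was at 201 and 240 CPM, below all 4 late sums, and Rpn8 at 160 and 174 CPM, below all 4 early sums. The part of the neuron markers in the changes of Rpn8 and Rpn11 was not tested.

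The remaining calls depended on the processing. Prosbeta4 fell from 363 CPM in hth and 360 in ey to 314 in tll and 272 in gcm in experiment 1, and from 502 and 393 to 334 and 310 CPM in experiment 2. The late and early sums did not overlap within an experiment, and the log2 fold change was -0.43 ± 0.13 (SE, adjusted p = 0.010). Its call was lost in 5 of 11 alternatives, where the adjusted p over all ranged from 0.0027 to 0.28, and it was lost both without the hth stage (-0.35) and without the gcm stage (-0.42).

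Rpn6, a lid subunit that clamps the regulatory particle to the core, rose by 0.23 ± 0.08 on the log2 scale (adjusted p = 0.030). It was at 154 CPM in hth, 156 in ey, 228 in tll and 162 in gcm in experiment 1, and at 189, 185, 230 and 208 CPM in experiment 2. The tll sums were the highest in both experiments, and the gcm sum of experiment 1 lay only just above the early ones. The call was lost in 8 of 11 alternatives (adjusted p of 0.010 to 0.29), among them the fit without the hth stage.

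Prosalpha1 was called as lower in late NBs, but the late sums held no UMI in experiment 1 and 1 UMI in experiment 2. The early sums held 18 and 53 UMIs. In experiment 1 the limit of a count of 0 is 2.92 CPM, which is above the early level of 2.70 CPM, so no difference was detectable there. In experiment 2 the ratio of early to late was 10.3, with a counting interval of 1.78 to 416. The fitted fold change depends on the zeros and is not given.

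The subcomplexes were summed to see whether they keep their proportions. Over the 7 stages the alpha ring summed to 1650 to 1846 CPM in experiment 1 and to 1941 to 2244 CPM in experiment 2, without Prosalpha1, and the beta ring to 1805 to 2041 and 2131 to 2632 CPM. The 6 ATPases summed to 902 to 1083 and 1124 to 1290 CPM, and the lid to 1268 to 1482 and 1439 to 1722 CPM. The ratio of core to regulatory transcripts was highest in the ey stage in both experiments, at 1.35 and 1.34, and lowest in tll among the stages, at 1.13 and 1.19. These ratios are descriptions, with no test.

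**Figure D4:**
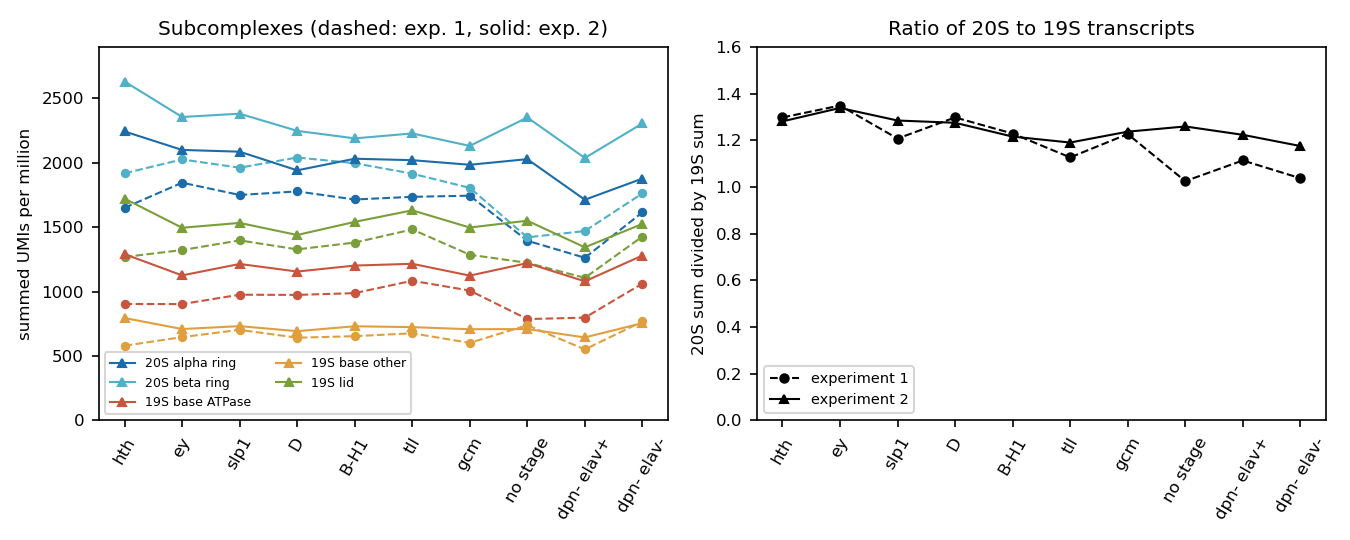
Left, summed level of each subcomplex in CPM in 10 cell groups (dashed, experiment 1; solid, experiment 2; the alpha ring without Prosalpha1). Right, ratio of the summed 20S core to the summed 19S regulatory transcripts in the same groups. Over the 7 NB stages the ratio lies between 1.13 and 1.35, and it is highest in ey and lowest in tll in both experiments.

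Per cell, the 47 members took a median of 0.614% of the UMIs of an NB in experiment 1 and 0.775% in experiment 2. With each NB thinned to 2000 UMIs, which left out 97 and 118 shallower cells, the mean was 12.3 member UMIs per cell with an SD of 4.61 in experiment 1 and 15.5 with an SD of 4.31 in experiment 2. The variance was 1.73 and 1.19 times the mean, where pure counting error gives a ratio near 1. In the staged NBs the ratio was 1.57 and 1.16, and in dpn-negative cells it was 2.17 and 2.54.

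In dpn-negative cells with an elav UMI, the fitted levels of 32 of the 33 members were below the mean of the 7 NB stages, most by a small amount. Of the 33 members, 8 passed the test as lower, where 23.2% of all genes were, and 1 was higher (Prosalpha1), where 34.3% of all genes were. The 8 make 24.2% of the members, close to the share over all genes, and in either direction 9 members were called against 57.5% of all genes. The median log2 fold change was -0.21 over the members and 0.05 over all genes. The median was -0.27 in experiment 1 and -0.15 in experiment 2. Relative to the median of all genes it was -0.26 in edgeR with TMM scaling, with DESeq2's size factors and with no scaling beyond the total.

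In these cells 3 alpha ring subunits, 1 beta ring subunit, 1 ATPase, 1 other base subunit and 2 lid subunits fell. Prosalpha7 was at 175 CPM in experiment 1 and 250 CPM in experiment 2, while the 7 stages held 253 to 321 and 316 to 350 CPM. Every stage was thus above the dpn-negative sum of its experiment. The log2 fold change was -0.53 ± 0.12 (SE, adjusted p = 0.0014 in edgeR's quasi-likelihood test) and was called in all 11 alternatives.

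Prosalpha5 was at 243 and 321 CPM against 329 to 381 and 399 to 431 CPM over the stages. Its change of -0.41 ± 0.09 (SE, adjusted p = 0.0016) was also called in all 11 alternatives. The beta ring subunit Prosbeta6 was at 181 and 251 CPM, with a change of -0.49 ± 0.15 (adjusted p = 0.012), and the alpha ring subunit Prosalpha3 was at 219 and 333 CPM, with -0.33 ± 0.10 (adjusted p = 0.012). Both lost the call only in the fit without the replicate block. The ATPase Rpt3 was at 171 and 256 CPM, with -0.32 ± 0.13 (adjusted p = 0.044), and lost the call in 7 of 11 alternatives. Rpn1, a scaffold of the base that also binds ubiquitin chains, and the lid subunits Rpn9 and Rpn5 fell by 0.29 ± 0.09, 0.27 ± 0.11 and 0.25 ± 0.10 (SE) on the log2 scale (adjusted p = 0.015, 0.048 and 0.037). They lost the call in 5, 8 and 6 of the 11 alternatives.

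Rpt3R was at 2.46 and 5.36 CPM in the dpn-negative cells with an elav UMI, from 6 and 49 UMIs, and did not pass the test against the mean of the stages (-0.47 ± 0.40, adjusted p = 0.33). In all NBs together it was at 9.98 and 14.3 CPM. Over the alternatives the change ranged from -1.85 to -0.16, and it was called at -1.85 against NBs below the median G2/M share (adjusted p = 0.0048). Prosalpha1 had 6 and 13 UMIs there, or 2.46 and 1.42 CPM, against 2.17 and 1.04 CPM in all NBs together. Its call as higher was lost in 4 of 9 alternatives. Beside these results, the heat shock genes were higher in these cells for 10 of 13 tested and lower for 2, where 34.3% and 23.2% of all genes were. The G2/M genes of the study's cell cycle list summed to 3823 and 3829 CPM in these cells and to 7529 and 7491 CPM in NBs. With NBs below the median G2/M share only, 19 members were lower. The median was -0.36 over the members and -0.05 over all genes. The share of all genes called lower in that fit was not counted. That fit lacks the B-H1, tll and gcm stages, which had too few such cells.

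**Figure D5:**
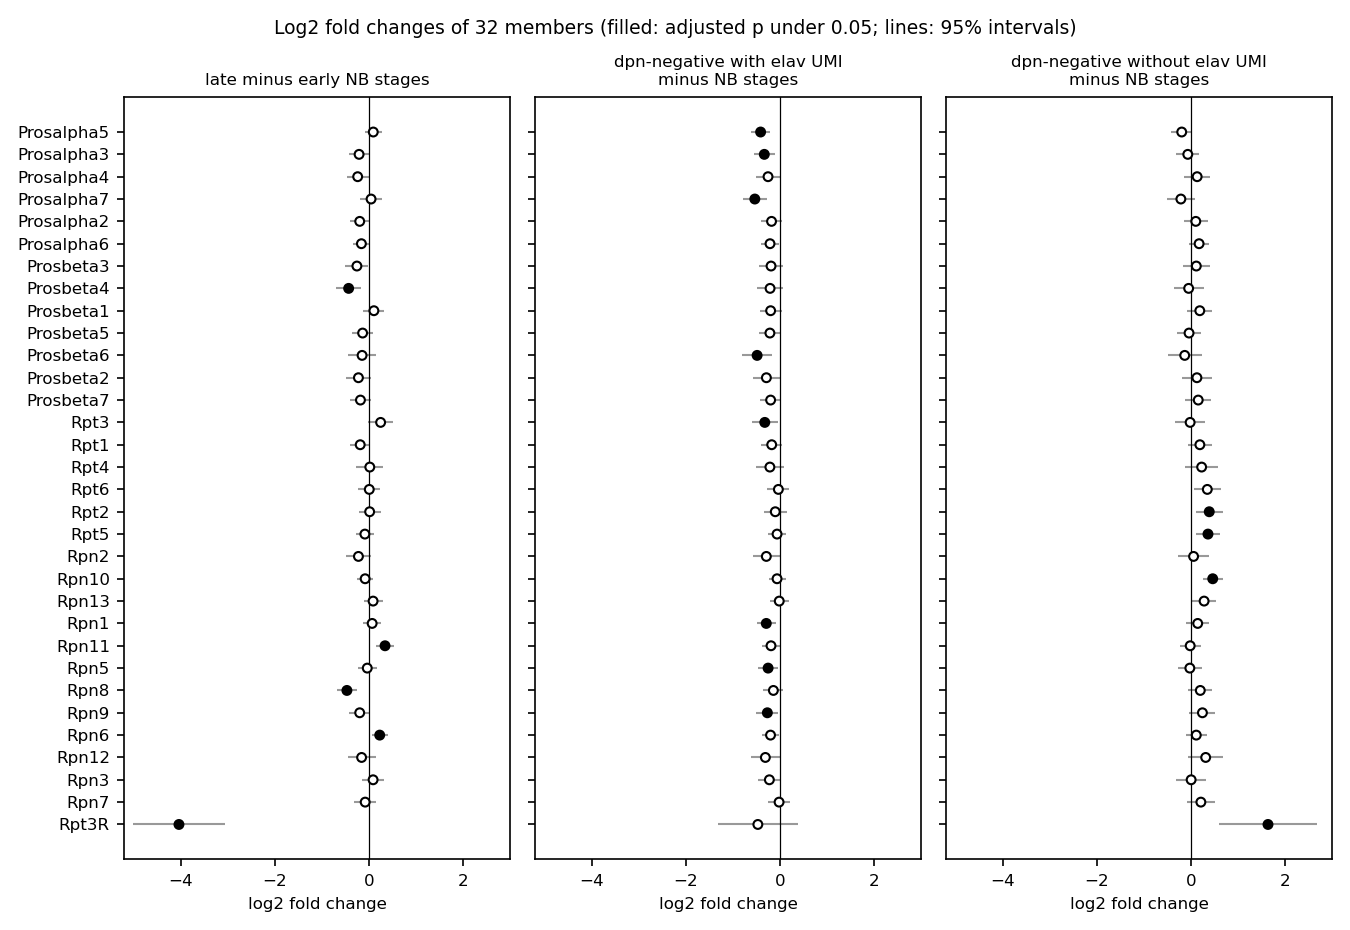
Log2 fold changes with 95% intervals (lines) of 32 members, without Prosalpha1, in the 3 comparisons of cell groups. Filled circles have an adjusted p under 0.05. Most members lie within 0.5 of 0, the middle panel lies to the left of 0 for nearly every member, and Rpt3R stands at -4.04 in the left panel.

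Fewer members were called in dpn-negative cells without an elav UMI than in those with one. Of the cells without an elav UMI, 74 of 104 in experiment 1 and 909 of 966 in experiment 2 held under 2000 UMIs. Of the 33 members, 4 were higher, where 23.2% of all genes were, and none was lower, where 17.3% of all genes were, in edgeR's quasi-likelihood test. In either direction 40.5% of all genes were called. No member was lower at an unadjusted p under 0.05 either, or in DESeq2, while 7 were higher at an unadjusted p under 0.05. This split depends on the scaling, since DESeq2 called 15 higher and none lower and edgeR with no scaling called 2 higher and 2 lower. The shares of all genes called with these scalings were not counted. The median over all genes moved from 0.02 to 0.17 and -0.10 with these scalings, and relative to it the members' median was 0.13, 0.09 and 0.13. With only the dpn-negative cells of at least 2000 UMIs, the members' median relative to all genes was 0.32, and -0.25 in those with an elav UMI.

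The ubiquitin receptor Rpn10 was at 213 and 222 CPM in these cells, against 142 to 161 CPM over the stages of experiment 1 and 174 to 212 CPM over those of experiment 2. Both sums were above every stage of their experiment. The log2 fold change was 0.46 ± 0.10 (SE, adjusted p = 0.0021), and it was called in all 11 alternatives. The ATPases Rpt2 (163 and 195 CPM) and Rpt5 (132 and 130 CPM) rose by 0.39 ± 0.13 (adjusted p = 0.032) and 0.36 ± 0.12 (adjusted p = 0.021), and each lost the call in 6 of 11 alternatives, edgeR with no scaling among them.

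Rpt3R was called higher in these cells, at 10.2 and 20.8 CPM, but from only 2 UMIs in experiment 1 and 21 in experiment 2. In all NBs together it was at 9.98 and 14.3 CPM. The test compares with the mean of the 7 stages on the log scale, which the low B-H1, tll and gcm stages pull down. The log2 fold change was 1.64 ± 0.49 (adjusted p = 0.015), with 0.73 in experiment 1 and 1.78 in experiment 2. Its values lay below the hth sum of each experiment. With only the dpn-negative cells of at least 2000 UMIs, 30 and 57 cells, the change was 1.77 and was not called (adjusted p = 0.13, in a range of 0.014 to 0.66 over the alternatives). The call was lost in 3 of 11 alternatives, and the change ranged from 0.36, with NBs of low G2/M share, to 1.77. Of the 6 glia markers, Gs2 (86.3 and 142 CPM), alrm (71.1 and 181 CPM) and repo (5.08 and 25.7 CPM) were far higher in these cells than in NBs, which held 0.235 and 0.444, 1.06 and 0.859, and 0.469 and 0.217 CPM of them. Eaat1 and nrv2 went the other way, with 40.6 and 96.99 CPM and 178 and 207 CPM against 144 and 160 CPM and 285 and 342 CPM in NBs, and moody was at 0 and 7.92 CPM. The part of glial cells in the values of the subunits was not tested.

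The other genes of the ubiquitin and proteasome pathway were followed in a list of 21, all of which were tested. Between late and early NBs 3 of them rose and 5 fell, where 50.3% of all genes were called in either direction. The deubiquitinase Uch fell most, from 161 CPM in hth and 87.2 in ey to 11.5 in tll and 20.2 in gcm in experiment 1, and from 147 and 92.6 to 44.0 and 25.2 CPM in experiment 2. The late sums lay below the early ones in both experiments, with a log2 fold change of -2.15 ± 0.18 (SE, adjusted p = 3.88e-07). Rngo, a shuttle that carries ubiquitinated proteins to the proteasome, rose from 54.2 and 66.4 CPM to 104 and 116 in experiment 1, and from 71.4 and 101 to 159 and 157 CPM in experiment 2 (0.86 ± 0.10, adjusted p = 5.57e-06).

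Without the hth stage the changes were -1.78 for Uch and 0.64 for rngo, and both genes were called in all 11 alternatives.

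PI31, a regulator that binds the proteasome, rose by 0.42 ± 0.10 (adjusted p = 0.0021), and the polyubiquitin gene Ubi-p63E rose by 0.28 ± 0.09 (adjusted p = 0.014). Nedd8, a ubiquitin-like modifier, fell by 0.65 on the log2 scale (adjusted p = 0.00018). The small Maf factor maf-S, a partner of the proteasome gene regulator cnc, fell by 0.57 (adjusted p = 0.00069). The core assembly chaperone Pomp and the segregase TER94 both fell by 0.31 (adjusted p = 0.017 and 0.013). PI31, Nedd8 and maf-S were called in all 11 alternatives, those without the hth or the gcm stage included. Pomp and TER94 each lost the call in 3, for TER94 without the gcm stage among them. Ubi-p63E lost it in 7, with a change of 0.11 without the hth stage (adjusted p = 0.44) in a range of 0.08 to 0.37.

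In dpn-negative cells with an elav UMI, 5 of the 21 genes were higher, where 34.3% of all genes were, and 10 lower, where 23.2% were. Uch rose most, with a log2 fold change of 1.81 ± 0.14 from the mean of the 7 stages (adjusted p = 6.31e-08 in edgeR's quasi-likelihood test). It was at 161 CPM in experiment 1 and 230 CPM in experiment 2, against 70.1 and 80.1 CPM over all NBs. The stages ran from 161 and 147 CPM in hth down to 11.5 CPM in tll of experiment 1 and 25.2 CPM in gcm of experiment 2. Pomp, REG, PI31 and the small subunit gene Sem1 were listed together, and 3 of these 4 genes fell. The symbol rule leaves Sem1 out of the 47 members. The changes were -0.76 ± 0.14 for REG, a nuclear activator (adjusted p = 0.00031), -0.35 for Pomp and -0.30 for Sem1. PI31 was not called, at 93.9 and 114 CPM against 110 and 117 CPM in NBs. The proteasome-bound deubiquitinases Uch-L5 and Usp14 fell by 0.86 and 0.53, and the shuttle genes rngo and Ubqn by 0.89 and 0.44. Nedd8, the ubiquitin-activating enzyme gene Uba1 and TER94 fell by 0.59, 0.32 and 0.25. The genes that rose beside Uch were the transcription factor gene cnc (0.58 ± 0.12, adjusted p = 0.00063), its inhibitor Keap1 (0.78 ± 0.28, adjusted p = 0.027) and the polyubiquitin genes Ubi-p5E (0.61 ± 0.11, adjusted p = 0.00020) and Ubi-p63E (0.23 ± 0.09, adjusted p = 0.035). Uch, Uch-L5, REG, cnc, rngo, Ubqn and Nedd8 were called in all 11 alternatives, Usp14, Uba1 and Ubi-p5E lost the call in 1, Pomp in 2, Sem1 in 3, Keap1 in 4, TER94 in 5 and Ubi-p63E in 7.

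In dpn-negative cells without an elav UMI, 2 of the 21 genes were higher, where 23.2% of all genes were, and 4 lower, where 17.3% were. Uch rose by 1.68 ± 0.19 (adjusted p = 8.39e-06) and Ubi-p5E by 0.92 ± 0.11 (adjusted p = 2.12e-05). Uba1, rngo, Ubqn and Uch-L5 fell by 0.48, 0.44, 0.40 and 0.37 on the log2 scale, and lost the call in 1, 6, 5 and 6 of 11 alternatives, while Uch and Ubi-p5E kept theirs in all 11.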

How the data were processed

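Medulla NBs were measured in 2 single-cell libraries of the same condition, from separate experiments. The authors aligned the reads to Ensembl's BDGP6 build and counted them in Cell Ranger, version 3.0.1 for the first and 3.1.0 for the second experiment. The files the authors deposited hold raw UMI counts of called cells, with no normalization. Counts were read as deposited, and no doublet caller was run; only the 5 deepest cells over both libraries were left out. Each stage factor was scaled by the 95th percentile of its share of a cell's UMIs in the same library, and ties had no stage. Counts were summed per library and cell group (20 sums), and CPM is the summed count over the UMIs of the group.

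The sums were tested in edgeR 4.0.16 (R 4.3.3) with TMM, filterByExpr and a quasi-likelihood fit with 9 residual degrees of freedom. The library was a block, since both libraries contributed to each group. Deviations between libraries correlated with -0.14 to 0.64 (median 0.24) over 45 pairs of groups. Cells are not replicates, groups of 1 library share its preparation, and stages were assigned from the same counts; p-values take the assignment as given. DESeq2 1.42.0 was an alternative, with no scaling, no filter, other limits on cells and thinned cells. Python 3.11.15, scipy 1.17.1 and pandas 2.3.3 were used for sums and intervals.

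Named were the 5 most abundant members, the 5 largest called changes in each direction with the same sign in both libraries, paralogs with at least 10 UMIs in NBs, and other pathway genes called. Rpn1, Rpn5, Rpn9, Rpt3 in the cascade and other subunits were named after their values were seen. The members, lists and stage rules were chosen with earlier results of these data known. Symbols of all 47 members matched RefSeq, whose annotation and that of Ensembl were used only for names, neighbours and overlaps; coordinates and sequences are not used here.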

Additional observations from a re-analysis of the deposited data

How the results depend on the processing

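The counts of members called moved with the processing more than the medians did. For the alternatives the share of all genes called was not counted, so the counts below have no background beside them. Members called higher in late NBs (2) came to 1 with no replicate block, without the filter on low counts, at a mitochondrial limit of 20%, with mira required, with stages from thinned cells, in cells with 1 stage factor only, without mitochondrial genes and without the hth stage. Members called lower in late NBs (4) came to 9 in DESeq2. Members called between any stages (4) came to 1 with no replicate block, 9 in DESeq2, 2 with stages from thinned cells and 1 in NBs below the median G2/M share.

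In dpn-negative cells with an elav UMI, the count called higher (1) came to 0 with no replicate block, with mira required, with stages from thinned cells, in cells with 1 stage factor and in NBs of low G2/M share, and to 2 without the filter and at the 20% limit. The count called lower (8) came to 2 with no replicate block, to 5 in DESeq2, without the filter, at the 20% limit and with thinned cells, to 4 in cells with 1 stage factor and in dpn-negative cells of at least 2000 UMIs, to 15 with no scaling and to 19 in NBs of low G2/M share. In dpn-negative cells without an elav UMI, the count called higher (4) came to 2 with no replicate block, with no scaling, without the filter and in cells of at least 2000 UMIs, to 15 in DESeq2 and to 1 in NBs of low G2/M share, and the count called lower (0) came to 2 with no scaling. The cause of these shifts was not tested.

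The median log2 fold change of the members ranged from -0.17 to 0.03 in late NBs, from -0.27 to -0.15 in dpn-negative cells with and from 0.13 to 0.17 in those without an elav UMI when 1 library was left out. It turned to 0.02 in late NBs with stages from thinned cells and to -0.02 in dpn-negative cells without an elav UMI at the 20% limit. None of the changes given above for single members and pathway genes turned its direction in an alternative with a value. Leaving out the hth or gcm stage, or shallow dpn-negative cells, was chosen after seeing the data. Thinned cells and cells with 1 stage factor had too few tll cells, so late NBs are gcm alone there, and late NBs of low G2/M share were too few to be compared. Depth limits the paralogs and Prosalpha1 most, since the late sums of experiment 1 hold few or none of their UMIs.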

Other observations

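The dpn-positive cells with at least 10% mitochondrial UMIs, which enter no comparison above, held 2836 cells in experiment 1 and 229 in experiment 2. All 31 standard subunits without Prosalpha1 had a lower CPM in these cells in experiment 2 than in NBs, with a median ratio of 0.502, and 24 of 31 had one in experiment 1, with a median ratio of 0.897. None of the 31 genes was higher in experiment 2 than in experiment 1 in these cells, the reverse of the NBs, where 30 were. The median mitochondrial share was 13.7% in experiment 1 and 24.3% in experiment 2. The difference was not tested.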
